A study of Mus musculus with 6 samples.

Results

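The genes described here are the matrix metalloproteinases (Mmp), the tissue inhibitors of metalloproteinases (Timp) and the secreted Adamts proteases measured in the mouse aorta. They were taken from the expression table by symbol: Mmp with a number and an optional letter, Timp with a digit, and Adamts with a number. The rule found 46 of the 36557 gene rows, of which 23 were Mmp, 4 were Timp and 19 were Adamts genes. The rule used no measured value. Of the 46, 39 had enough counts to be tested, and 7 did not.

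RNA came from the aortic arch and thoracic aorta, taken after the vessels had been flushed with PBS. The control group held 3 libraries from Apoe-/- mice and the knockout group 3 libraries from mice that were both Apoe-/- and MiR26b-/-, so both groups lacked Apoe, the ligand that clears lipoprotein remnants from blood. All mice had been fed a high-fat diet (HFD) for 4 weeks, and the comparison asks what the loss of miR-26b changed on that shared background. Age, sex, strain and the cells in which MiR26b was deleted are not given in the sources used here. Nothing in the labels ties a library to an animal of its own, and p-values here reflect only how far these samples spread, which may be in part technical. No row carried the symbol Mir26b, and the deletion itself was therefore not checked.

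Matrix metalloproteinases are zinc enzymes, mostly secreted as inactive precursors, that cut collagens, elastin and other matrix proteins, and Timps bind their active sites. Adamts proteases carry thrombospondin repeats that hold them in the matrix, where several cut the large proteoglycans versican and aggrecan. In atherosclerotic vessels macrophages are a known source of some of these enzymes, and smooth muscle cells and fibroblasts of others.

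Sequences bear on 2 features of these genes, the match to the deleted microRNA and the start sites of a cluster of Mmp genes. The 5p arm of miR-26b, the only arm searched, is shown with its seed, bases 2 to 8, in capitals, from RefSeq on GRCm38.p6 (chr1:74394324-74394344, plus strand). Whether other microRNAs share that seed was not examined.
miR-26b-5p: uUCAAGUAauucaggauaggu
A seed match was counted as TACTTGA, TACTTGAA or ACTTGAA in the longest annotated 3′ UTR of a gene, on the sense strand, with the longest form taken where they overlap. Such a match was present in 13 of the 39 tested members (33.3%), whose 3′ UTRs had a median length of 1783 bases, and in 3367 of 16133 tested genes with a 3′ UTR (20.9%), with a median of 1192 bases. The windows below show the matches, in capitals, in those members that were called as changed or carry the longest form near the stop codon. Mmp17 holds a pair.
Mmp13: aaacttagaaACTTGAAaattgtgagga
Mmp14: tgatgTACTTGAgcctgcccaccccacc
Adamts5: tcagaaaaacACTTGAAttgagctgttt
Mmp17, first: gagcctgaagACTTGAAttcaggactcc
Mmp17, second: cagtttgccaACTTGAAggactgggatg
Adamts7: cgcagaTACTTGAAtatggacatcgaat
Adamts20: acgttcctttTACTTGAAtttcctcttt
The Mmp14 and Adamts7 matches begin 6 and 7 bases, and the Adamts20 match 30 bases, after the stop codon of the transcript with the longest 3′ UTR, which need not be the transcript made in the aorta. Of the 10 called members, Mmp12, Mmp3, Mmp2, Timp1, Adamts4 and Adamts15 held no match. The median log2 difference between knockout and control was 0.07 over the 13 tested members with a match and 0.09 over the 26 without, and that difference was not tested.

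The second set of sequences shows the bases just upstream of annotated starts in the Mmp cluster on chromosome 9. In capitals are the TATA motif TATAAA and the AP-1 motif, searched loosely as TGANTCA with any middle base (N). AP-1 is the Fos and Jun dimer, known as an inducer of collagenase genes. All are from RefSeq on GRCm38.p6, on the plus strand, and end at the base before the start.
Mmp13, chr9:7272364-7272513: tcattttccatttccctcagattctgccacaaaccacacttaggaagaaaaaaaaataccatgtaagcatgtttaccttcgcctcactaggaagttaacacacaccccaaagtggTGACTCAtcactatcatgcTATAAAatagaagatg
Mmp3, chr9:7445672-7445821: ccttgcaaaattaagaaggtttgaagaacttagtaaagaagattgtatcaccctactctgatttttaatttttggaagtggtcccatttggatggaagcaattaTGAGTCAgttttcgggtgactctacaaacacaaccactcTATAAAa
Mmp12, second start, chr9:7347224-7347373: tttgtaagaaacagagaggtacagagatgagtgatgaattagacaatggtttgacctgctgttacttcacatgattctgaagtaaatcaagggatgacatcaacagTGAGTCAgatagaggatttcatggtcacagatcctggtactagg
Mmp8, chr9:7558279-7558428: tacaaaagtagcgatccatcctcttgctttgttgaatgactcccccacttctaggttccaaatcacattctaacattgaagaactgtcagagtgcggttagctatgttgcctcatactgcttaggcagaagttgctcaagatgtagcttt
The AP-1 motif, which reads the same on both strands, began 35 bases before the start in Mmp13, 46 in Mmp3 and 44 in Mmp12 at its second start, and the TATA motif, searched on both strands, began 16 bases before it in Mmp13 and 7 in Mmp3. Mmp8 held neither, nor did the first start of Mmp12, at the upstream end of the gene. In the 250 bases upstream, TGANTCA stood in 8 of 12 promoters of the cluster, in 0 of 23 promoters of other members and in 6.7% of 32851 promoters in the table, and both motifs stood together in 7 of the 12 and in 1.21% of all. Promoters of 32 of the 46 members matched the table. A match describes these letters only, since binding was not measured.

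The 6 libraries held 51634139 to 54817547 counts each, so depth differed little. Levels are given as CPM, counts divided by the TMM-scaled library size, and levels of different genes are compared only in deposited TPM, which also divide by transcript length. A gene is called where edgeR's quasi-likelihood test over 17392 genes gave a Benjamini-Hochberg adjusted p under 0.05. Knockout replicate 3 stood apart from its group: the first principal component (61.9% of the variance) placed it at 0.97, the other knockouts at 47.0 and 55.7, and the controls from -45.3 to -25.4. The summed TPM of 14 macrophage markers was 883 to 1166 in the controls, 6270 and 7000 in knockouts 1 and 2, and 2364 in knockout 3, and 13 of the 14 were called higher, all but Cd163. Counts of called members over the whole set are therefore given with and without knockout replicate 3. The differences of members called in either fit are given both ways too. Knockout replicate 3 was singled out from these same data. The fit without it holds only knockouts 1 and 2 and is no independent check. Counts by role or family and lists of related genes use all 6 libraries unless stated.

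Among the 39 tested members, 9 were called higher in the knockouts (23.1%) and 1 lower (2.56%), beside 6.5% and 3.84% of all genes tested. Those higher were Mmp12, Mmp13, Mmp3, Mmp14, Mmp2, Timp1, Adamts4, Adamts5 and Adamts15, and the 1 lower was Mmp17. Because whole tissue was sequenced, more cells of a type and more RNA per cell cannot be told apart. The groups did not overlap in 19 of 39 members (48.7%) and in 36.1% of all genes. The median log2 difference was 0.09 over the tested members and -0.0033 over all genes, and 16 of the 39 tested members, none of them called, lay within 0.25 of 0. Without knockout replicate 3, 15 members were called higher (38.5%) and 5 lower (12.8%), beside 17.2% and 11.4% of all genes, and all 10 members called with it were among the 20. The 10 added were Mmp8, Mmp11, Mmp19, Mmp25, Mmp27 and Adamts7, higher, and Mmp28, Timp4, Adamts8 and Adamts14, lower. Leaving out any other single library left 0 members called, with adjusted p between 0.0736 and 0.161 for the 10 (edgeR, each of 5 libraries left out in turn). With the mean level of 15 fat markers as a covariate, 0 members were called either, and that level was 4.69 to 6.21 (log2 CPM) in the controls and 3.85, 4.46 and 5.87 in the knockouts. The part of fat in the calls was not tested.

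**Figure D1:**
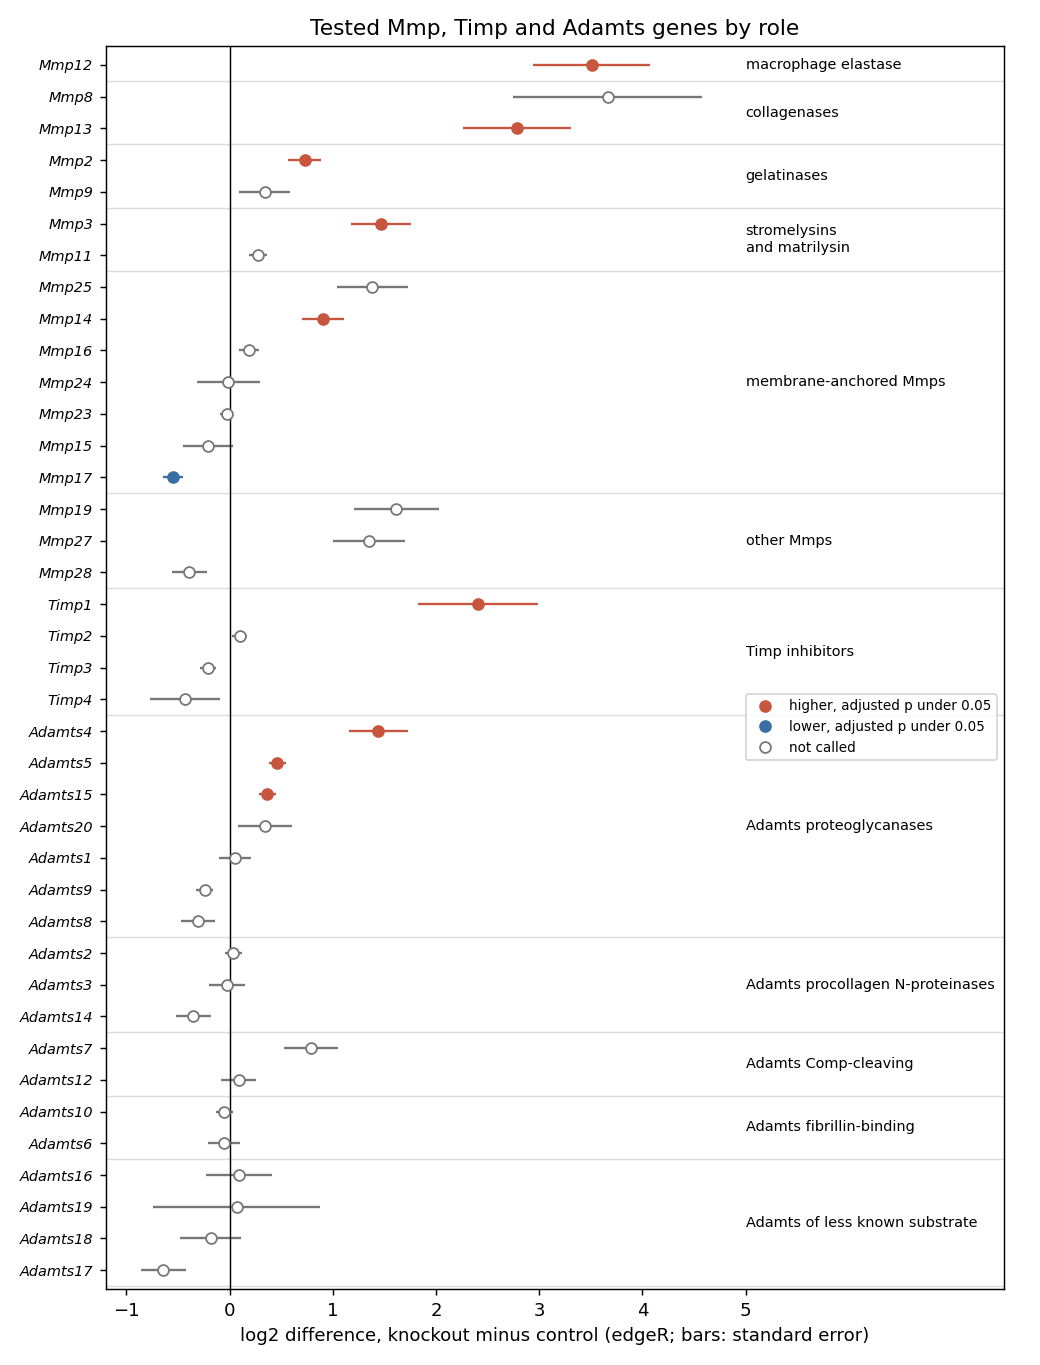
The log2 difference, knockout minus control, of each of the 39 tested members (points, with standard errors), arranged by role. Filled points were called (9 higher, 1 lower), and Mmp8, at 3.67, has the largest difference and the widest error without a call.

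**Figure D2:**
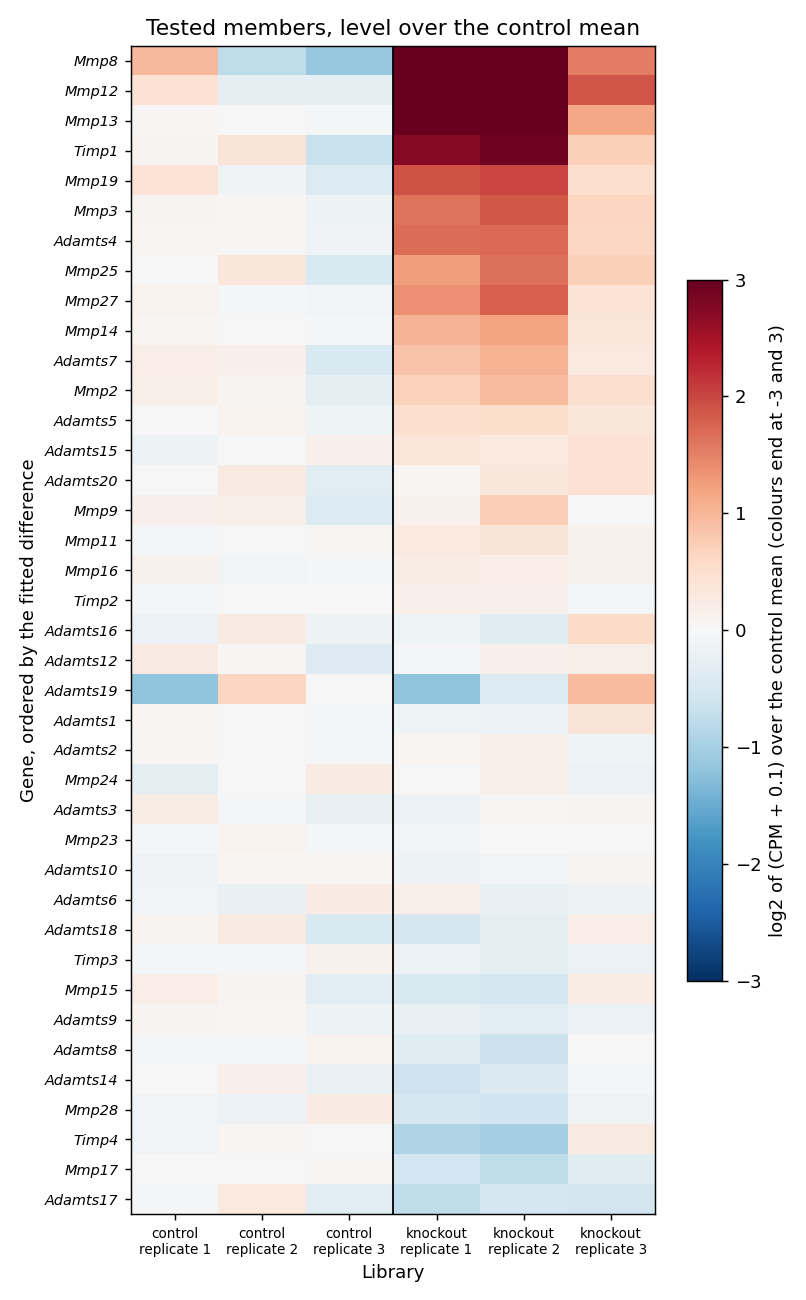
Each tested member (vertical axis, in order of the fitted difference) in each library (horizontal axis), coloured by its log2 level over the control mean, with 0.1 CPM added. In the genes at the top, knockout replicates 1 and 2 are darkest and knockout replicate 3 is paler.

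Macrophage elastase, Mmp12, degrades elastin and is known mainly from macrophages (chr9:7344381-7369499, plus strand). Its level was 28.5, 17.4 and 17.6 CPM in the controls and 312, 331 and 78.2 CPM in the knockouts. Every knockout library lay above every control, and knockout 3 was far below the other 2 knockouts. The difference was 3.51 ± 0.57 on the log2 scale (SE, n = 3 and 3), 11.4-fold, with an adjusted p of 0.0280 in edgeR, and the fold was 15.2 without knockout replicate 3. With the fat covariate it was 7.25, with an adjusted p of 0.0929. It shares 157 annotated bases with Mmp1b on the other strand, and Mmp1b was at 0 in every library.

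Of the 4 collagenases, which cut fibrillar collagen, only Mmp13 was called, Mmp8 fell just short of the threshold, and Mmp1a and Mmp1b, the rodent relatives of human interstitial collagenase, had no counts in any library. Mmp13 (chr9:7272514-7283331) was at 1.16, 1.12 and 1.10 CPM in the controls and at 10.4, 10.3 and 2.62 CPM in the knockouts. The controls were nearly equal, and the groups did not overlap. The difference was 2.78 ± 0.52 (log2, SE), 6.87-fold, with an adjusted p of 0.0325 in edgeR. The fold was 9.14 without knockout replicate 3 and 3.98 with the fat covariate, where the adjusted p was 0.0939. Mmp8, the neutrophil collagenase, was at 0.578, 0.104 and 0.0569 CPM in the controls and at 4.50, 4.08 and 0.900 CPM in the knockouts. Again the groups did not overlap, but the highest control stood close to the lowest knockout. Its log2 difference of 3.67 had a standard error of 0.92 and an adjusted p of 0.0527 in edgeR. Without knockout replicate 3 it was called, at 4.10 with an adjusted p of 0.00818. The size rests on few control counts, 30.6, 5.40 and 2.99 per library, and rose from 12.7-fold to 40.1-fold without control replicate 1. Summed TPM of 10 neutrophil markers was 31.4, 19.4 and 9.24 in the controls and 76.9, 135 and 19.8 in the knockouts, with 1 of 7 tested markers (Csf3r) called higher and Ly6g, Elane and Camp too low to test. The part of that marker change in the Mmp8 result was not tested.

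Of the gelatinases, which cut denatured collagen and basement membrane, 1 of 2 was called. Mmp2 (chr8:92827291-92853420), a product of fibroblasts and smooth muscle cells, was at 182, 170 and 130 CPM in the controls and at 262, 310 and 227 CPM in the knockouts. All 3 knockouts lay above the highest control, with a log2 difference of 0.73 ± 0.16 (SE), 1.66-fold (1.78-fold without knockout replicate 3), and an adjusted p of 0.0409. Mmp9, known from neutrophils and macrophages, was at 7.40, 7.61 and 5.05 CPM in the controls and at 7.34, 11.3 and 6.80 CPM in the knockouts. These groups overlapped, with a log2 difference of 0.34 ± 0.25 and an adjusted p of 0.395, and Mmp9 was also not called without knockout replicate 3.

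Stromelysins cut proteoglycans and activate other Mmp precursors. Mmp3 (chr9:7445822-7455975), stromelysin 1, was at 104, 103 and 89.4 CPM in the controls and at 308, 357 and 155 CPM in the knockouts. The groups did not overlap, with knockout 3 the lowest knockout, and the difference was 1.47 ± 0.29 (log2, SE), 2.77-fold (3.37-fold without knockout replicate 3), with an adjusted p of 0.0347. Mmp11, stromelysin 3, had non-overlapping groups but a small difference of 0.27 ± 0.09 and an adjusted p of 0.0893. Without knockout replicate 3 it was called, at 0.34 with an adjusted p of 0.0158. Mmp10 and the matrilysin Mmp7 were too low to test, at 0.101 CPM or less in every library.

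Of the 7 membrane-anchored Mmps, 1 was called higher, 1 lower and 5 neither. Mmp14 (chr14:54431612-54445364), which activates the Mmp2 precursor at the cell surface, was at 89.8, 85.0 and 82.4 CPM in the controls and at 173, 199 and 111 CPM in the knockouts. No control reached the lowest knockout, and the difference was 0.91 ± 0.20 (log2, SE), 1.87-fold (2.16-fold without knockout replicate 3), with an adjusted p of 0.0420. Mmp17 (chr5:129584169-129611099), a lipid-anchored protease made in vascular smooth muscle, went the other way, with 128, 128 and 132 CPM in the controls and 87.4, 76.7 and 101 CPM in the knockouts. All knockouts lay below all controls, the log2 difference was -0.55 ± 0.10, 1.46-fold lower (1.58-fold without knockout replicate 3), and the adjusted p was 0.0320. The summed TPM of 10 smooth muscle markers was 32212 to 37083 in the controls and 22820 to 26435 in the knockouts, and 5 of the 10 were called lower. The part of that change in the Mmp17 result was not tested.

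Mmp25, the lipid-anchored Mmp of leukocytes, had a log2 difference of 1.38 ± 0.34, with non-overlapping groups of 0.639, 0.840 and 0.440 CPM in the controls and 1.67, 2.23 and 1.11 CPM in the knockouts, and missed the threshold with an adjusted p of 0.0520. Without knockout replicate 3 it was called, at 1.60 with an adjusted p of 0.0122. Mmp15, Mmp16, Mmp23 and Mmp24 lay between -0.21 and 0.18 on the log2 scale with overlapping groups. Mmp23 had the highest level of any Mmp in the controls, with a mean of 144 TPM ± 11.3 (SD, n = 3), and was at 139 TPM ± 3.09 in the knockouts.

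Of the 5 other Mmps, Mmp20 and Mmp21 were too low to test. Mmp19, which is made in macrophages, smooth muscle and endothelium, was at 27.9, 19.6 and 15.8 CPM in the controls and at 79.3, 84.4 and 30.1 CPM in the knockouts, with the highest control just under knockout 3. Its difference of 1.61 ± 0.41 had an adjusted p of 0.0542 in edgeR. Without knockout replicate 3 Mmp19 was called, at 1.95 with an adjusted p of 0.00172. It shares 789 of 3533 exon bases with Tmem198b on the opposite strand, whose log2 difference was 0.17. Whether the libraries kept strand is not stated, and the part of that overlap was not tested. Mmp27 had a difference of 1.35 ± 0.35 and an adjusted p of 0.0555, with non-overlapping groups of low level. Without knockout replicate 3 it was called, at 1.66 with an adjusted p of 0.00164. Mmp28, epilysin, had a log2 difference of -0.39 with overlapping groups and an adjusted p of 0.173. It was called lower without knockout replicate 3, at -0.56 with an adjusted p of 0.0250.

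**Figure D3:**
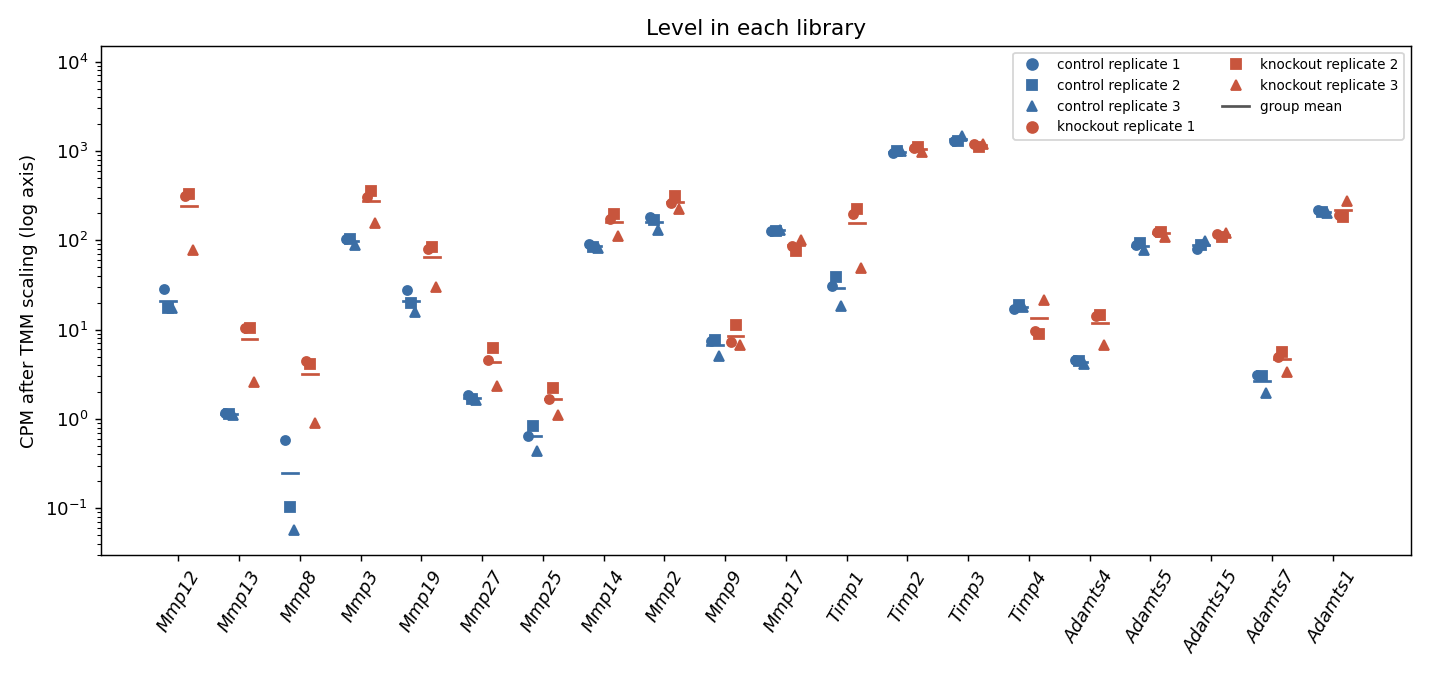
CPM (log axis) of 20 members in each library, with a line at each group mean. Mmp12, Mmp13, Mmp8 and Timp1 separate most widely, and knockout replicate 3 (triangles) lies nearest the controls in them.

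Read by place, 10 Mmp genes lie side by side over 427.1 kb of chromosome 9 (chr9:7272514-7699585), in the order Mmp13, Mmp12, Mmp1b, Mmp3, Mmp1a, Mmp10, Mmp8, Mmp27, Mmp20 and Mmp7. Of these, 5 were expressed enough to test, and all 5 had non-overlapping groups with the knockouts higher. Among all genes, 36.1% had non-overlapping groups in either direction. Of the 5, 3 were called higher with all libraries and 5 without knockout replicate 3, beside 6.5% and 17.2% of all genes. Their median log2 difference was 2.78, the value of Mmp13 itself, beside 0.23 over the 12 tested Mmps elsewhere in the genome. Of those 12, 2 were called higher and 1 lower. Mmp12, Mmp13 and Mmp8 are also among the Mmps grouped below as myeloid-associated, so place and source group cannot be told apart for them. The other 5 genes of the cluster stayed near or at 0 in both groups. Upstream of a start, Mmp13, Mmp3, Mmp1a, Mmp1b, Mmp10, Mmp20 and Mmp7 hold both motifs searched above, Mmp12 holds the AP-1 motif alone, and Mmp8 and Mmp27 hold neither. The free middle base of the AP-1 match was A in Mmp20 and C or G in the others.

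**Figure D4:**
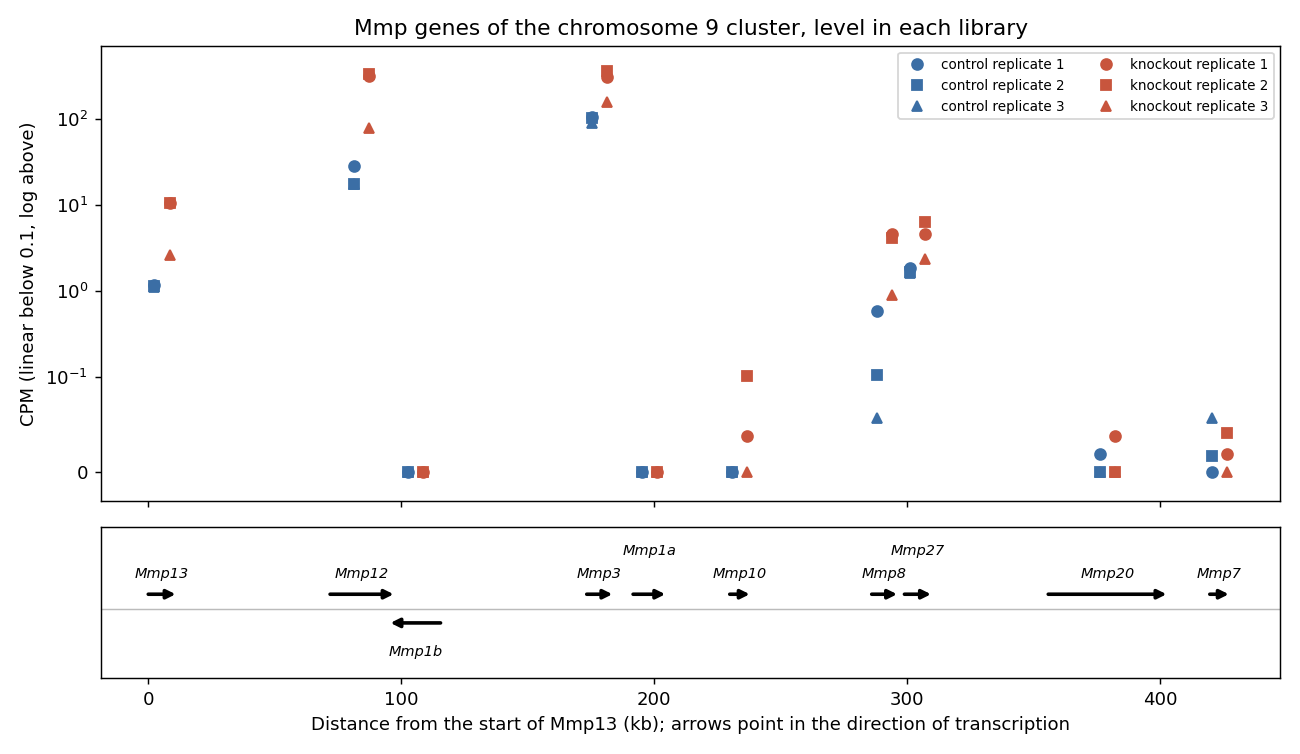
CPM of the 10 clustered Mmp genes in each library, plotted by distance in kb from the start of Mmp13, with gene directions below. The 5 tested genes (Mmp13, Mmp12, Mmp3, Mmp8 and Mmp27) are higher in the knockouts, and the other 5 lie at or near 0.

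Only 1 of the 4 inhibitors was called, Timp1 (chrX:20870166-20874735), the inducible Timp. It was at 30.9, 38.4 and 18.2 CPM in the controls and at 195, 223 and 48.3 CPM in the knockouts. Knockout 3 was well below the other 2 but above every control, and the difference was 2.41 ± 0.58 (log2, SE), 5.32-fold, with an adjusted p of 0.0488, closest to the threshold of the called members. The fold without knockout replicate 3 was 7.15, and with the fat covariate it was 3.35, with an adjusted p of 0.218. Timp2, which also helps Mmp14 to activate the Mmp2 precursor, was at 959, 996 and 997 CPM in the controls and at 1092, 1100.2 and 966 CPM in the knockouts, with overlapping groups, a log2 difference of 0.10 ± 0.07 and an adjusted p of 0.424. Timp3, which is bound to matrix and also inhibits Adamts proteases, was at 1299, 1289 and 1467 CPM in the controls and at 1200.1, 1107 and 1202 CPM in the knockouts. Its groups did not overlap, but the difference of -0.21 ± 0.08 had an adjusted p of 0.138.

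Timp4, the least abundant, was at 17.1, 18.8 and 18.03 CPM in the controls and at 9.54, 8.86 and 21.6 CPM in the knockouts. Knockout 3 alone lay above the controls, so the groups overlapped and the log2 difference of -0.43 had an adjusted p of 0.436. Without that library it was -0.97 with an adjusted p of 0.000713. The summed TPM of 7 white fat markers was also highest in knockout 3 among the knockouts, at 962, 1495 and 3186. In the controls, where Timp4 varied little, that sum was 3617, 2997 and 1529. The part of these markers in the Timp4 value was not tested.

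Of the 18 tested Adamts genes, 3 were called higher and 0 lower, and all 3 were among the 7 proteoglycanases. Adamts4 (chr1:171250421-171260637), an aggrecanase and versicanase, was at 4.55, 4.46 and 4.07 CPM in the controls and at 14.3, 14.4 and 6.81 CPM in the knockouts. It rose in all 3, by 1.44 ± 0.29 (log2, SE), 2.71-fold (3.28-fold without knockout replicate 3), with an adjusted p of 0.0347. Adamts5 (chr16:85856173-85901828), the other main aggrecanase, was at 87.8, 93.1 and 78.8 CPM in the controls and at 123, 125 and 110 CPM in the knockouts. That difference was small and even, 0.46 ± 0.08, 1.38-fold (1.43-fold without knockout replicate 3), with an adjusted p of 0.0307.

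Adamts15 (chr9:30899155-30922452), a versican-cleaving relative, was at 80.9, 88.5 and 99.5 CPM in the controls and at 116, 110 and 121 CPM in the knockouts, a difference of 0.37 ± 0.09, 1.29-fold (1.26-fold without knockout replicate 3), with an adjusted p of 0.0456. It was the 1 called-higher member in which knockout replicate 3 was not the lowest knockout; in the other 8 it was. Adamts1, the proteoglycanase of highest TPM, was at 217, 210 and 201 CPM in the controls and at 192, 185 and 275 CPM in the knockouts, with overlapping groups and an adjusted p of 0.848, and its sign turned from 0.05 to -0.15 without knockout replicate 3. Adamts7, which cleaves cartilage oligomeric matrix protein and lies at a known human coronary risk locus, was at 3.10, 3.01 and 1.94 CPM in the controls and at 4.94, 5.64 and 3.33 CPM in the knockouts, a difference of 0.79 ± 0.26 with an adjusted p of 0.0995. Without knockout replicate 3 it was called, at 0.98 with an adjusted p of 0.0223. Its groups did not overlap, and 122 of its exon bases are shared with Tbc1d2b on the opposite strand, which had a mean of 7293.5 counts beside 193.3 for Adamts7. Timp3, Timp4, Mmp11 and Mmp24 also share exon bases with an opposite gene, Syn3, Syn2, Chchd10 and BC029722 in that order.

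The other Adamts genes were given by range. Adamts8 and Adamts9, also proteoglycanases, had log2 differences of -0.31 and -0.24, and Adamts20 one of 0.35 at under 1 CPM. Without knockout replicate 3, Adamts8 was called lower, at -0.51 with an adjusted p of 0.0140. The procollagen N-proteinases Adamts2, Adamts3 and Adamts14, which trim fibrillar procollagens, had differences of 0.03, -0.02 and -0.35, all with overlapping groups. Of these, Adamts14 was called lower without knockout replicate 3, at -0.52 with an adjusted p of 0.0365. Adamts12 stood at 0.09, the fibrillin-binding Adamts6 and Adamts10 at -0.054 and -0.051, and Adamts16, Adamts18 and Adamts19 at 0.09, -0.18 and 0.07. Adamts17 was 0.64 lower without overlap, at about 1 to 2 CPM, with an adjusted p of 0.103. Adamts13, the von Willebrand factor protease, was too low to test, with at most 6.88 counts in a library. Across all 29 tested members without a call, the differences ran from -0.64 to 3.67, and 16 lay within 0.25 of 0.

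On the scale per transcript length, all Mmps together came to 510, 497 and 449 TPM in the controls and 1167, 1286 and 663 TPM in the knockouts. The Mmps grouped here as myeloid-associated (Mmp8, Mmp9, Mmp12, Mmp13 and Mmp25) summed to 36.1, 23.6 and 22.5 TPM in the controls. In the knockouts they came to 367, 387 and 93.9 TPM, 10.3 times as much on average. The grouping was made by gene, and which cells made each Mmp here, Mmp13 among them, was not tested. The stromal set (Mmp2, Mmp3, Mmp10, Mmp11, Mmp16, Mmp17, Mmp23 and Mmp28) summed to 392, 401 and 356 TPM and to 635, 711 and 472 TPM, 1.58 times as much. Neither pair of groups overlapped. Of the 5 tested myeloid-associated Mmps, 2 were called higher (4 without knockout replicate 3), with a median log2 difference of 2.78, the value of Mmp13 itself. Of the 7 tested stromal Mmps, 2 were called higher and 1 lower (3 and 2 without that library), with a median of 0.18. In the set grouped as made by both sources, Mmp14, Mmp15, Mmp19 and Mmp24, 1 of 4 was called higher, with a median of 0.45.

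Mmp12 carried most of the myeloid sum. It made up 6.04%, 3.44% and 4.13% of all Mmp TPM in the controls and 30.2%, 28.8% and 13.1% in the knockouts. In the order of mean TPM it went from sixth Mmp in the controls, behind Mmp23, Mmp3, Mmp2, Mmp14 and Mmp17, to first in the knockouts at 270 TPM ± 159 (SD, n = 3). Mmp3 followed at 265 TPM ± 103, a gap far inside the spread of either gene. Then came Mmp2 at 151 TPM ± 24.8 and Mmp23 at 139 TPM ± 3.09, which also do not differ beyond their spread. Among inhibitors, Timp3 and Timp2 led in the controls at 448 TPM ± 33.2 and 442 TPM ± 5.42, with Timp1 at 71.7 TPM ± 24.8. In the knockouts Timp1 reached 388 TPM ± 235, beside 395 TPM ± 19.2 for Timp3 and 486 TPM ± 39.02 for Timp2. Adamts10, Adamts1 and Adamts2 led the Adamts genes in both groups.

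Protease and inhibitor sums were also set against each other. Timps came to 953, 971 and 988 TPM in the controls and 1419, 1432 and 977 TPM in the knockouts, so knockout 3 lay among the controls. The ratio of all Mmps to all Timps was 0.535, 0.512 and 0.454 in the controls and 0.823, 0.898 and 0.679 in the knockouts, without overlap. The ratio of Mmp12 to Timp1 was 0.403, 0.183 and 0.414 and then 0.719, 0.668 and 0.728, where knockout 3 did not stand apart. The ratio of Mmp14 to Timp2 was 0.141, 0.132 and 0.129 and then 0.229, 0.272 and 0.172. Adamts genes summed to 367, 383 and 381 TPM and to 380, 377 and 431 TPM, with overlap. These are ratios of transcripts, and active enzyme was not measured.

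**Figure D5:**
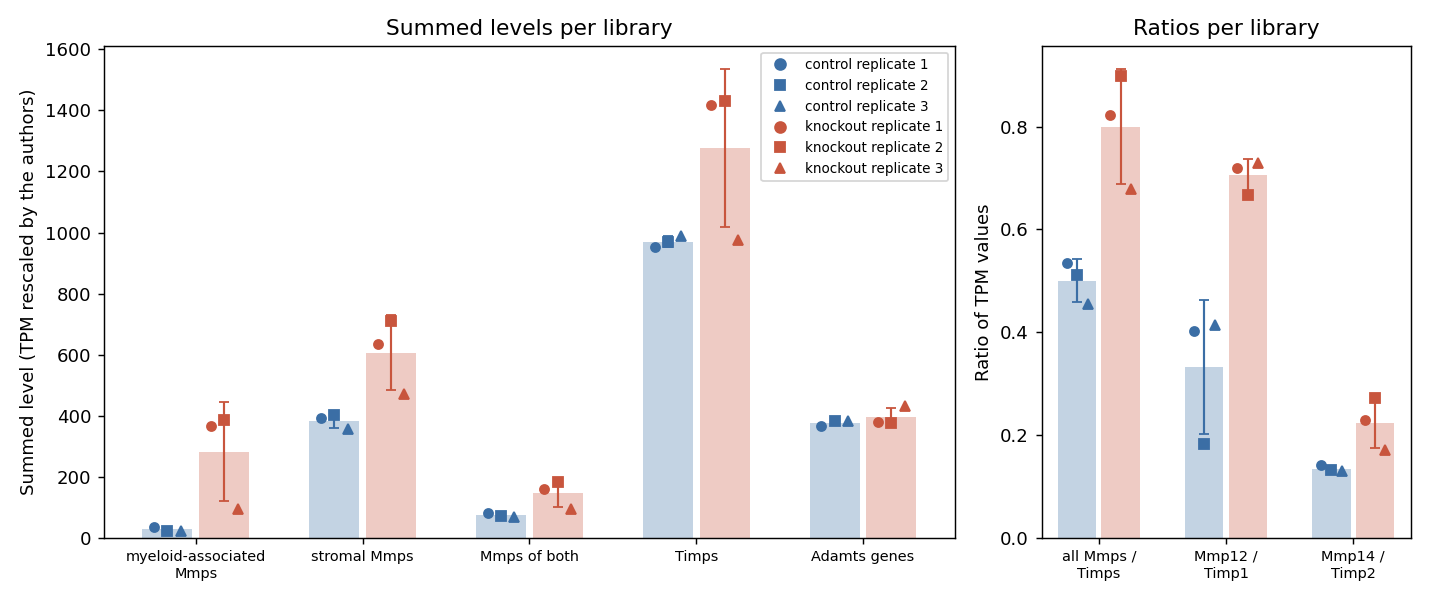
Left, summed TPM of the Mmp source sets, Timps and Adamts genes; right, 3 protease to inhibitor ratios. Bars are group means with SD (n = 3), and points are libraries. The groups do not overlap in the sum of any Mmp source set or in the 3 ratios. They overlap in the Timp and Adamts sums.

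Set against Cd68, a lysosomal macrophage protein, the members fell into different patterns. Cd68 itself rose from 23.2, 17.2 and 14.1 CPM to 131, 150 and 46.8 CPM, 6.02-fold with an adjusted p of 0.0304 in edgeR. Mmp12 came to 83.5, 64.7 and 86.8 TPM per 100 TPM of Cd68 in the controls and to 166, 155 and 119 in the knockouts. It thus exceeded Cd68 in its change in every knockout library, which need not hold for other macrophage markers. The 14 macrophage markers, Cd68 among them, had log2 differences from -0.21 to 3.45, beside 3.51 for Mmp12. No other marker was used as the divisor. Mmp13 per 100 of Cd68 overlapped between groups, at 1.91, 2.57 and 3.13 and at 3.07, 2.66 and 2.19, and Timp1 overlapped as well. Mmp3, Mmp14, Mmp19 and Mmp27 per 100 of Cd68 were lower in every knockout than in every control, for example 269, 369 and 398 and then 142, 145 and 203 for Mmp3. Fibroblast markers also moved, with a summed TPM of 4667 to 4838 in the controls and 5823 to 6991 in the knockouts and 5 of 10 called higher. The part of either cell type in these values was not tested.

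The wider protease network was described from lists of related genes. Counts in these lists stand beside 6.5% of all tested genes called higher and 3.84% called lower. In the short lists, a single call is not far from those shares. Of 11 Adam family genes, related to Adamts, 4 were called higher and 0 lower. These were Adam8, a leukocyte sheddase, 8.39-fold, Adam23 1.61-fold, and the ectodomain sheddases Adam17 and Adam10 1.24-fold each. Of 11 cysteine cathepsins and cystatins, 6 were called higher, led by the lysosomal elastase Ctss at 8.40-fold (also 1 of the macrophage markers), with Ctsb at 2.41-fold, the collagenolytic Ctsk at 1.68-fold and Ctso at 1.27-fold. Their inhibitor Cst3 had a log2 difference of 0.17 and was not called. Of 8 genes of the plasminogen axis, which generates the plasmin that activates Mmp precursors, only Plau was called, 2.68-fold higher, and its inhibitor Serpine2 was 0.31 lower on the log2 scale with an adjusted p of 0.0690. Of 8 tested regulators of matrix proteases only Thbs1 was called, 3.15-fold higher, while Reck, a membrane-bound Mmp inhibitor, was 0.44 lower with an adjusted p of 0.0582.

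Of 7 Adamts-like proteins, which lack the protease domain, Adamtsl1 was called higher (1.25-fold) and Thsd4, which binds fibrillin, lower (1.92-fold). Of 17 substrates of these enzymes, 0 were called higher and 3 lower, all basement membrane chains: Col4a2 1.51-fold, Col4a1 1.36-fold and Lama4 1.39-fold lower. Elastin (Eln), versican (Vcan) and aggrecan (Acan) had log2 differences of -0.24, 0.10 and -0.41 and were not called.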

How the data were processed

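Total RNA of 6 libraries, 3 Apoe-/- control and 3 Apoe-/- MiR26b-/-, was sequenced. Per the submitters' processing notes, the tools were kallisto 0.46.2 with GRCm38, after Trim Galore 0.6.5 and FastQC 0.11.8. The deposited estimated counts are not whole numbers, and the step that scaled them is not given in the sources used here; 66.3% to 67.7% of low values were whole multiples within 0.02 of a constant per library between 0.9004 and 1.0685. The deposited TPM table is treated as a signal, rescaled by the authors, since its columns sum to 955527 to 1034723. After rounding to whole numbers, genes passing filterByExpr at a minimum count of 10 were TMM scaled. They were tested with edgeR 4.0.16 in R 4.3.3, with Benjamini-Hochberg adjustment over 17392 genes. The method was tested on simulated data with the same dispersion for every gene and no library set apart. That simulation therefore does not cover a library such as knockout replicate 3. The biological coefficient of variation was 0.164, and a floor of 3 counts is 0.0561 to 0.0576 CPM. Standard errors are the log2 difference divided by the root of F. Alternatives used DESeq2 1.42.0, limma 3.58.1, other scalings and filters, a replicate block, a fat marker covariate and each library left out. Replicate numbers came from the labels. Deviations of same-numbered libraries correlated at -0.09, 0.23 and 0.08, which does not settle whether they pair. UTRs, coordinates and exon overlaps came from GENCODE mouse release 21. An exon overlap of 1 member is not reported here.

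Values are given per library for called members, the 4 Timps, Mmp2, Mmp9, Mmp14, Adamts1, Adamts4, Adamts5 and Adamts7. Of each list of related genes, up to 4 called genes of lowest p are named, or the 2 of lowest p where fewer than 2 were called. Mmp8, Mmp19, Mmp25, Cst3, Eln, Vcan and Acan were added after their values were seen. The members and lists were chosen with earlier results of these data known.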

Additional observations from a re-analysis of the deposited data

How the results depend on the processing

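Under median-of-ratios scaling, library size alone, no filter on low counts, a mean count of at least 50, DESeq2 and a replicate block, all 10 called members kept their call and direction. They also kept them without knockout replicate 3, a library singled out from these same data. Without any other single library, all 10 calls were lost. Of all genes 1131 were called higher and 667 lower, and of members 9 and 1. DESeq2 gave 2086 and 1357 genes, and 14 and 2 members. Limma-voom called 559 genes and 3 members higher, and kept 4 of the 10 calls. Limma on log2(TPM + 1) gave 461 and 251 genes and 3 and 0 members; with 0.1 in place of 1 it gave 641 and 301 genes and 5 members higher. With the replicate block, 13 members were called higher and 2 lower, among them Mmp28 (edgeR adjusted p 0.0271). The labels do not say that replicate numbers pair these samples. Deviations of same-numbered libraries correlated at -0.09, 0.23 and 0.08, and those of differently numbered ones at -0.21 to 0.12, which cannot settle pairing. With mean fat marker level as a covariate, 111 and 99 genes and 0 and 0 members were called, and folds were 7.25 for Mmp12, 3.98 for Mmp13 and 3.35 for Timp1. Leaving out 1 library at a time gave 0 to 3051 genes higher, 0 to 2028 lower, 0 to 15 members higher and 0 to 5 lower. With library size alone, 76.8% of calls among all genes were higher, beside 62.9% with TMM. The Timp sum ratio was 1.31 in TPM and 1.003 in CPM, where the short Timp1 transcript weighs less. Leaving out each library, an alternative chosen after seeing the data for the sums, gave 8.42 to 13.8 for the myeloid-associated sum. The cause of the lost calls was not tested.

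Members near 0 changed sign. Leaving out 1 library at a time, log2 differences ran from -0.15 to 0.16 for Adamts1, -0.077 to 0.25 for Adamts12, -0.29 to 0.29 for Adamts16, -1.01 to 0.69 for Adamts19, -0.036 to 0.11 for Adamts2, -0.13 to 0.12 for Adamts3, -0.18 to 0.090 for Adamts6, -0.058 to 0.029 for Mmp23 and -0.18 to 0.18 for Mmp24. With the fat covariate, Adamts18 was at 0.13, Adamts2 at -0.0059, Adamts3 at 0.12 and Mmp15 at 0.070. With library size alone, Adamts3 was at 0.022, Mmp23 at 0.014 and Mmp24 at 0.029. Limma-voom gave -0.064 for Adamts19 and 0.0040 for Mmp24. On log2(TPM + 1), Adamts3 was at 0.033 and Mmp24 at 0.027. On log2(TPM + 0.1), Adamts3 was at 0.069, Adamts19 at -0.024 and Mmp24 at 0.14. The replicate block put Adamts19 at -0.025.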
